A study of Mus musculus with 18 samples.

Results

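The genes described here are the well-expressed genes of the mouse dorsal root ganglion (DRG), compared between mice with a tibial fracture given protectin DX (PDX) and mice with a fracture given vehicle. A gene was taken as well expressed when its mean over all 18 libraries was 5 FPKM or more (fragments scaled by transcript length and by the mapped fragments of the library), which left 7471 of 36737 genes. The mean of *Ddx41*, 5 FPKM, lay just inside this limit and that of *Amacr*, 4.999 FPKM, just outside it. All mice were CD1, an outbred strain, without a transgene or deletion named in the labels. There were 6 fracture mice with vehicle, 6 fracture mice with PDX and 6 sham mice, each group of 3 males and 3 females, and each mouse gave 1 library of poly(A) RNA from the L3–L5 DRG. The DRG of the fracture groups were collected 3 days after the fracture, and the sham surgery has no day in the labels. The labels do not give the dose of PDX for the sequenced mice, and since CD1 mice are not inbred, mice of a group also differ in genotype.

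The DRG holds the cell bodies of the primary sensory neurons. Nociceptors among them sense heat, irritants and pressure through ion channels such as TRPA1 and release peptides such as CGRP, while neurons with thick myelinated fibers carry touch and limb position. Each cell body is wrapped by satellite glial cells, and Schwann cells ensheath the axons. When a peripheral axon is damaged, its neuron switches on a set of regeneration-associated genes that includes *Atf3*, *Jun*, *Sprr1a* and *Gal*. PDX is a lipid mediator made from docosahexaenoic acid that belongs to the specialized proresolving mediators.

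Between 63235040 and 82824942 reads were counted on genes in each of the 12 fracture libraries, and 89.7% of these counts fell on well-expressed genes. The libraries had the defining genes of DRG, since 20 of 20 pan-neuronal genes, 13 of 15 satellite glial genes and 25 of 28 myelin genes were well expressed. The summed level of the pan-neuronal genes ranged from 4972 to 5061 FPKM in vehicle mice and from 4854 to 5150 FPKM in PDX mice. Genes of other cells varied more. The summed level of 9 muscle genes ranged from 33.6 to 566 FPKM in vehicle mice and from 13.3 to 297 FPKM in PDX mice, that of 7 neutrophil genes from 86.8 to 184 and from 79.1 to 443 FPKM, and that of 3 placental genes from 13.95 to 127 and from 14.4 to 66.7 FPKM. Of 6 B and T cell genes, 0 reached 5 FPKM.

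No well-expressed gene passed the test between PDX and vehicle. Of 21361 genes tested with edgeR's quasi-likelihood test with sex as a covariate, 0 (0%) were called at a threshold of 0.05 on p-values adjusted by the Benjamini-Hochberg procedure, the smallest of which was 0.664, for the predicted gene *Gm13375*. With unadjusted p-values, 1140 genes were under 0.05. All 7471 well-expressed genes were tested, and 457 of them (6.12%) had an unadjusted p-value under 0.05, 221 higher and 236 lower with PDX. Among all genes tested, 2.75% were higher and 2.59% lower at that threshold. DESeq2, run as an alternative, called 13 genes, of which 7 were well expressed (*Rassf4*, *Htr3a*, *Clip2*, *Cox8a*, *Prr13*, *Angptl7* and the predicted gene *Gm13375*).

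Differences of well-expressed genes were measured more narrowly than those of other genes. The median standard error (SE) of a log2 fold change was 0.0446 for well-expressed genes and 0.103 for all genes tested. For 6842 of the 7471 genes (91.6%), the 95% interval of the log2 fold change lay within 0.32 of 0 in either direction, a limit called narrow below, against 51.4% of all genes tested. The middle 90% of the log2 fold changes lay between -0.11 and 0.11, with 3698 genes higher and 3773 lower. A change of more than 1.5-fold was estimated for 48 well-expressed genes, 23 higher and 25 lower, of which 17 belong to the lists of other cell types, 2 to the neuronal lists (*Sprr1a* and *Nts*) and 0 to the glial lists. *Chrna6*, a nicotinic receptor subunit of neurons that is in no list and was added after its value had been seen, is another of the 48. It had 2.45 to 15.9 FPKM (median 11.6) with vehicle and 7.88 to 32.5 FPKM (median 23.2) with PDX, at a log2 fold change of 1.02 (SE 0.50, adjusted p = 0.933), and 4 PDX mice lay above the vehicle range. The sham mice spread from 8.83 to 46.8 FPKM. Of the 48 genes, 8 had an unadjusted p-value under 0.05, all of them genes of granulocytes or other myeloid cells (*Camp*, *Chil3*, *Ltf*, *Ngp*, *Prg2*, *Retnlg*, *S100a8* and *S100a9*). The others included *Rpl35a*, *Rpl26* and several pseudogenes of ribosomal protein genes, near-identical copies between which reads can be split.

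**Figure D1:**
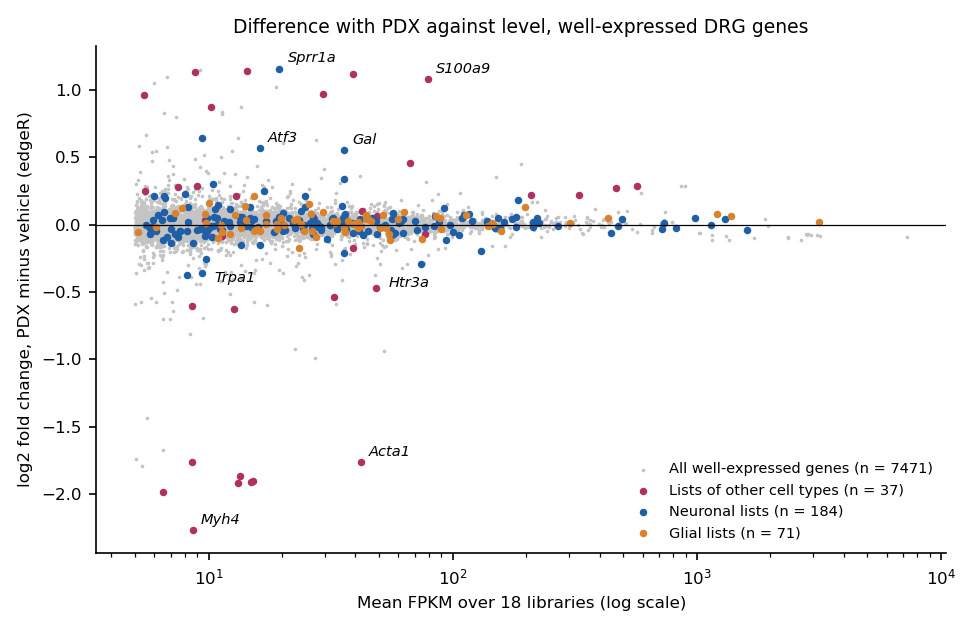
Each point is a well-expressed gene, with its mean level over 18 libraries in FPKM on a log scale (horizontal) and its edgeR log2 fold change between 6 PDX and 6 vehicle mice (vertical). The 184 neuronal (blue) and 71 glial genes (orange) mostly lie near 0, apart from *Sprr1a* at 1.16, the highest of all, and muscle genes lie as low as -2.27 and neutrophil genes as high as 1.14 (magenta, other cell types).

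The 4 genes with the smallest p-values in each direction, leaving out predicted, ribosomal protein and other-cell genes, all had log2 fold changes within 0.32 of 0. Genes are placed on GRCm38, and 95% intervals are in log2 units. *Rassf4* (ENSMUSG00000042129, chromosome 6 from 116633008 to 116673952), a member of the Ras-association domain family, had 9.42 to 11.5 FPKM (median 10.8) in vehicle mice and 7.52 to 9.10 FPKM (median 8.71) in PDX mice, at a log2 fold change of -0.31 (SE 0.061, adjusted p = 0.801, interval -0.44 to -0.17). Every PDX mouse lay below every vehicle mouse, a separation that 0.126% of all genes tested had in this direction. *Htr3a* (ENSMUSG00000032269, chromosome 9 from 48899213 to 48911099) encodes a subunit of the serotonin-gated ion channel of sensory neurons. It had 46.4 to 60.3 FPKM (median 54.98) with vehicle and 41.3 to 51.2 FPKM (median 42.7) with PDX, at a log2 fold change of -0.29 (SE 0.065, adjusted p = 0.801, interval -0.43 to -0.15), and 4 PDX mice lay below every vehicle mouse. *Fkbp5* (ENSMUSG00000024222, chromosome 17 from 28399094 to 28517527), a co-chaperone of steroid hormone receptors that glucocorticoids induce, ranged over 5.45 to 7.06 FPKM (median 6.04) with vehicle and 4.60 to 5.82 FPKM (median 4.82) with PDX, at a log2 fold change of -0.28 (SE 0.067, adjusted p = 0.801). For this gene 5 PDX mice lay below the vehicle range and the sixth, at 5.82 FPKM, lay within it. *Lmbrd2*, which encodes a membrane protein, went from a median of 9.02 to 7.70 FPKM with overlapping groups (log2 fold change -0.20, SE 0.046, adjusted p = 0.801).

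Of the 4 genes on the higher side, 3 had all PDX mice above all vehicle mice. *Cox8a* (ENSMUSG00000035885, chromosome 19 from 7215153 to 7217616), a subunit of cytochrome c oxidase in mitochondria, had 186 to 210.3 FPKM (median 202) with vehicle and 213 to 247 FPKM (median 222) with PDX, at a log2 fold change of 0.17 (SE 0.036, adjusted p = 0.801, interval 0.09 to 0.25). *Clip2* (ENSMUSG00000063146, chromosome 5 from 134489383 to 134552434), which encodes a linker protein of microtubules, had 36.4 to 39.6 FPKM (median 37.8) and 39.7 to 43.5 FPKM (median 40.8), at a log2 fold change of 0.13 (SE 0.028, adjusted p = 0.801). *Prr13* (ENSMUSG00000023048, chromosome 15 from 102459028 to 102462806) had 66.2 to 71.95 FPKM (median 68.9) and 73.1 to 80.9 FPKM (median 75.9), at a log2 fold change of 0.14 (SE 0.032, adjusted p = 0.801). The groups did not overlap for these 3 genes, as was the case in this direction for 0.145% of all genes tested. *Ston1*, an adaptor of endocytosis, had medians of 5.84 and 6.61 FPKM (log2 fold change 0.20, SE 0.048, adjusted p = 0.801), and 5 PDX mice lay above the vehicle range.

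*Htr3b* (ENSMUSG00000008590, chromosome 9 from 48935008 to 48964990), the other subunit of the same serotonin-gated channel and a close neighbor of *Htr3a*, was looked at after the values of *Htr3a* had been seen. It had 6.22 to 7.97 FPKM (median 6.45) with vehicle and 3.14 to 6.05 FPKM (median 4.51) with PDX, at a log2 fold change of -0.54 (SE 0.15, adjusted p = 0.801, interval -0.88 to -0.21). The groups did not overlap, although the lowest vehicle mouse, at 6.22 FPKM, lay close to the highest PDX mice, at 6.03 and 6.05 FPKM. In sham mice *Htr3b* ranged from 4.15 to 7.53 FPKM and *Htr3a* from 42.5 to 68.5 FPKM, so the sham values reached into both other groups.

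**Figure D2:**
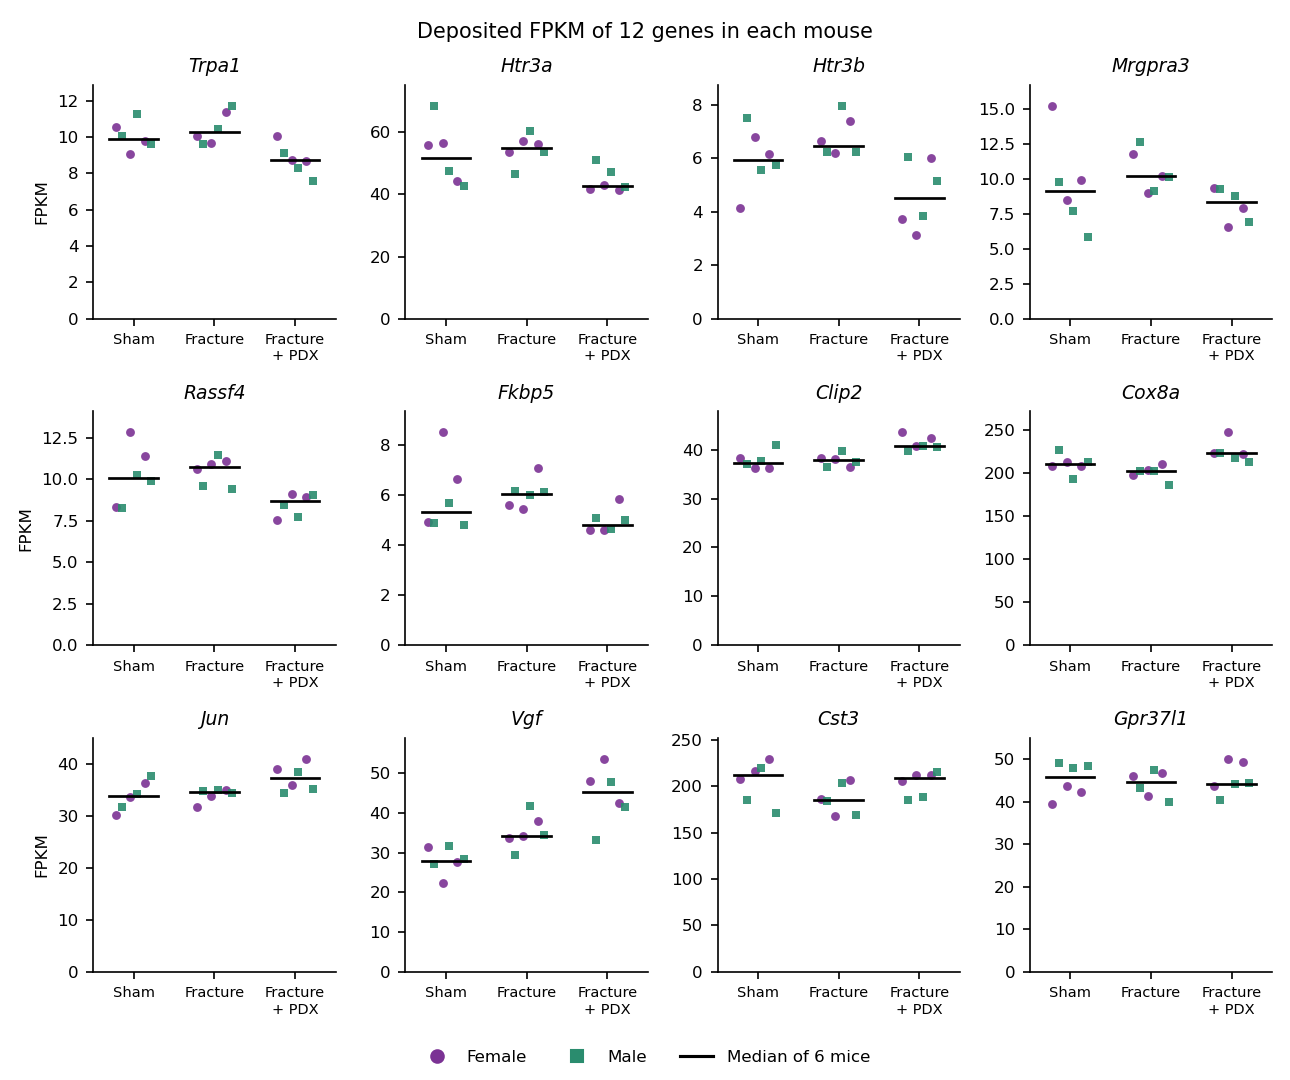
Deposited FPKM (vertical, from 0) of 12 genes in each of the 6 sham, 6 fracture and 6 fracture plus PDX mice (circles for females, squares for males, bars for medians). The PDX mice lie below all fracture mice given vehicle for *Rassf4* and *Htr3b* and above them for *Clip2* and *Cox8a*, and the groups overlap for the other 8 genes.

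When levels were compared as CPM (counts scaled to library size by TMM), 14 well-expressed genes had all PDX mice above and 12 had all PDX mice below the vehicle mice. Of all 21361 genes tested, 31 (0.145%) and 27 (0.126%) did, so these counts are near the background. These 26 genes were picked by their values, so their differences are a description only. The lower ones included *Tmem100*, a membrane protein known to modulate the complex of TRPA1 and TRPV1 in DRG neurons, which had 11.2 to 12.3 FPKM (median 11.8) with vehicle and 9.15 to 11.1 FPKM (median 10.3) with PDX, at a log2 fold change of -0.19. They also included *Acaa2*, an enzyme of fatty acid oxidation (-0.14), *Vdac3*, a channel of the outer mitochondrial membrane (-0.11), and *Pam16*, a part of the mitochondrial import motor (-0.14). The membrane-remodeling protein *Chmp2b* (-0.09), the transporter *Slc35b1* (-0.13), the protease *Ufsp2* (-0.07), the transcription factor subunit *Gtf2h5* (-0.06), the splicing protein *Snrpn* (-0.06) and *Znhit1* (-0.15) completed the lower side with *Rassf4* and *Htr3b*. The higher side, besides *Clip2*, *Cox8a* and *Prr13*, held the cell cycle regulator *E2f4* (0.27), the interleukin 10 receptor chain *Il10rb* (0.19), the chromatin remodeling subunit *Smarcd3* (0.17), the actin nucleator subunit *Arpc2* (0.08) and the ubiquitin ligase *Syvn1* of the endoplasmic reticulum (0.08). The endosomal proteins *Rab5c* (0.06) and *Snx15* (0.16), *Lbh* (0.17), *Tbc1d22b* (0.10) and 2 predicted genes made up the rest. None of the 26 is a member of the neuronal or glial lists.

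Genes of neurons were grouped in 12 lists by cell type or function, and genes of glia in 4. Of the 240 neuronal genes 184 were well expressed and 56 were not, and of the 78 glial genes 71 were and 7 were not. With PDX, 93 neuronal genes were higher and 91 lower, with a median log2 fold change of 0.00. An unadjusted p-value under 0.05 was reached by 11 higher and 4 lower neuronal genes, 8.15% of the 184 against 6.12% of all well-expressed genes. Among glial genes 43 were higher and 28 lower, the median was 0.01, and 2 higher and 0 lower genes (2.82%) reached that threshold. The lowest adjusted p-value was 0.801 for a neuronal and 0.924 for a glial gene. The 95% interval was narrow, as defined above, for 156 neuronal (84.8%) and 63 glial genes (88.7%). In lists with medians near 0, leaving out single mice often turned which side held more genes. The number higher then ranged from 5 to 8 of 13 for nonpeptidergic neurons, from 5 to 8 of 14 for genes of all glia and from 7 to 13 of 19 for cholesterol synthesis. For transducers it ranged from 7 to 10 of 14, so the lower side never held more.

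**Figure D3:**
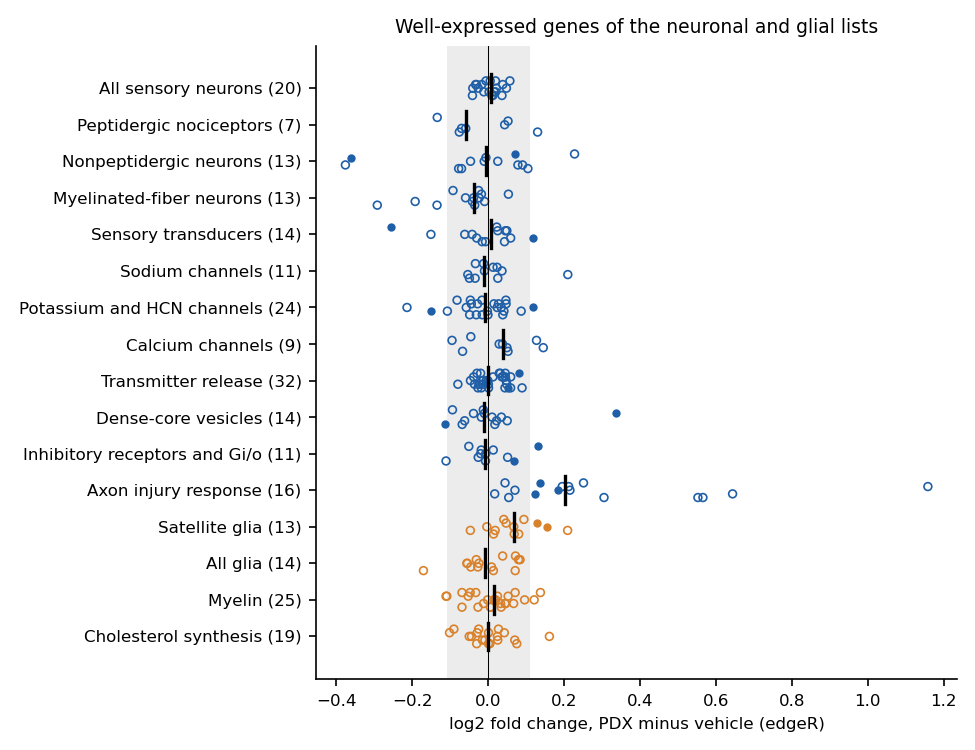
Each row is a list, with the number of well-expressed members in brackets, and each point is a gene placed by its edgeR log2 fold change with PDX (filled, unadjusted p under 0.05). Black bars are medians and the grey band holds the middle 90% of all well-expressed genes, from -0.11 to 0.11. The axon injury list, with a median of 0.20, is the only row whose bar lies outside the band.

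Genes that mark all sensory neurons were at almost equal levels. All 20 were well expressed, 12 were higher and 8 lower, none had an unadjusted p-value under 0.05, and the 95% intervals of all 20 were narrow. Without vehicle male 2, 9 were higher and 11 lower, and without vehicle female 1 or PDX male 3, 10 were on each side. *Tubb3*, the neuronal β-tubulin, had 1280.2 to 1378 FPKM (median 1338) with vehicle and 1309 to 1401 FPKM (median 1372) with PDX, at a log2 fold change of 0.04 (SE 0.026, adjusted p = 0.941). *Rbfox3*, which encodes the nuclear antigen NeuN (0.06, SE 0.038), and the transcription factor *Prrxl1* (-0.04, SE 0.041) had the smallest p-values in either direction. In bulk tissue, fewer neurons and less RNA per neuron cannot be told apart, and this holds for every list below.

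Among peptidergic nociceptor genes 7 of 11 were well expressed, 3 higher and 4 lower, with a median of -0.06. Without single mice the median ranged from -0.08 to -0.03, and with a limit of 1 or 10 FPKM it reached 0.006. *Calca*, the gene of CGRP, had 422 to 495 FPKM (median 441) with vehicle and 391 to 482 FPKM (median 425) with PDX, at a log2 fold change of -0.06 (SE 0.041, adjusted p = 0.944), and the groups overlapped. *Kit*, a growth factor receptor, had the smallest p-value on the lower side (medians 7.00 and 6.38 FPKM, log2 fold change -0.13, SE 0.067) and *Adcyap1*, the gene of the peptide PACAP, on the higher side (27.7 and 30.8 FPKM, 0.13, SE 0.14). Neither reached an unadjusted p-value under 0.05, and without vehicle male 1 the estimate for *Adcyap1* was 0.06.

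The list of nonpeptidergic neurons, with 13 of 18 genes well expressed, spread more widely. Its members ranged from -0.38 to 0.23, 6 were higher and 7 lower, and 7 had narrow intervals. *Mrgpra3*, a receptor of itch neurons, had 9.02 to 12.7 FPKM (median 10.2) with vehicle and 6.55 to 9.36 FPKM (median 8.36) with PDX, at a log2 fold change of -0.36 (SE 0.11, adjusted p = 0.801, interval -0.59 to -0.13), and 4 PDX mice lay below the vehicle range. *Mrgprx1*, another itch receptor, had a similar estimate with a wider error (-0.38, SE 0.24), on 487 to 1390 counts per library. Without single mice its estimate ranged from -0.51 to -0.21, and that of *Mrgpra3* from -0.42 to -0.30. *Mrgprd*, which marks the largest nonpeptidergic class, had medians of 59.04 and 57.95 FPKM (-0.08, SE 0.097), and *Ret*, the kinase of the GDNF receptor, of 114 and 116 FPKM (0.07, SE 0.027, adjusted p = 0.888). *Mrgpra3* and *Mrgprx1* belong to a family of similar receptor genes, between which reads may have been split.

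Of 23 sensory transducer genes 14 were well expressed, 7 higher and 7 lower. *Trpa1* (ENSMUSG00000032769, chromosome 1 from 14872648 to 14918862), the irritant-gated channel of nociceptors, had the smallest p-value in the list. It had 9.62 to 11.7 FPKM (median 10.2) with vehicle and 7.56 to 10.1 FPKM (median 8.72) with PDX, at a log2 fold change of -0.26 (SE 0.067, adjusted p = 0.801, interval -0.40 to -0.11), and 5 PDX mice lay below the vehicle range. The sham mice, from 9.05 to 11.3 FPKM, lay in the vehicle range or just below it. *Trpv1*, the capsaicin receptor, which is found in an overlapping set of neurons, had 28.1 to 33.4 FPKM (median 28.7) and 23.5 to 30.2 FPKM (median 29.6), at a log2 fold change of -0.04 (SE 0.059, adjusted p = 0.990). *Tmem120a*, a membrane protein proposed as a mechanosensitive channel, had medians of 9.88 and 10.9 FPKM (log2 fold change 0.12, SE 0.047, adjusted p = 0.888), and 5 PDX mice lay above the vehicle range when compared as CPM.

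Ion channel lists lay close to 0. Of 11 well-expressed sodium channel genes and channel partners 5 were higher and 6 lower, with none at an unadjusted p-value under 0.05. *Scn9a*, a sodium channel that sets the threshold of nociceptors, had medians of 21.2 and 20.9 FPKM (-0.05, SE 0.059), and *Scn10a*, the tetrodotoxin-resistant channel of nociceptors, of 84.7 and 85.4 FPKM (-0.01, SE 0.041). The auxiliary subunit *Scn2b* (0.21, SE 0.16) and the channel partner *Fgf13* (-0.05, SE 0.029) had the smallest p-values in either direction. For *Scn2b* the estimate was 0.08 without PDX male 3. The count of sodium channel genes on the higher side was 8 without vehicle female 2, 7 without PDX female 3, 6 without PDX female 2 and 3 without PDX male 3.

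Of 24 well-expressed potassium and HCN channel genes 10 were higher and 14 lower, and 23 had narrow intervals. Without vehicle female 2, 17 were higher, and without PDX female 3, 13 were. *Kcns3*, a silent modulatory subunit, had medians of 16.7 and 14.8 FPKM (log2 fold change -0.15, SE 0.065, adjusted p = 0.916), and 4 PDX mice lay below the vehicle range. *Kcnc4*, a channel of fast repolarization, had medians of 12.04 and 12.9 FPKM (log2 fold change 0.12, SE 0.054, adjusted p = 0.924). The lowest estimate was that of the leak channel *Kcnk1* (-0.21, SE 0.11), with 1 male PDX mouse at 20.97 FPKM, while the other PDX mice had 31.3 to 35.7 and the vehicle mice 33.2 to 40.6 FPKM. Among 9 well-expressed calcium channel genes 6 were higher and 3 lower. The N-type channel gene *Cacna1b* (0.15, SE 0.14), the P/Q-type gene *Cacna1a* (0.05, SE 0.041) and the auxiliary subunit *Cacna2d3* (-0.07, SE 0.042) had overlapping groups. For *Cacna1b* the estimate was 0.04 without PDX female 1.

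All 32 genes of transmitter release were well expressed, 17 higher and 15 lower, with narrow intervals for all 32. *Snap25*, a SNARE protein, had 150.5 to 155 FPKM (median 153) and 143 to 157 FPKM (median 149.9), at a log2 fold change of -0.03 (SE 0.024, adjusted p = 0.969). An unadjusted p-value under 0.05 was reached by 2 members, both higher. The smallest in each direction were those of *Syn1*, which tethers synaptic vesicles (0.08, SE 0.035), and of *Cplx2*, a complexin (-0.08, SE 0.043).

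In the list of dense-core vesicles, which store peptides, 14 of 15 genes were well expressed, and its extreme members pointed in opposite directions. *Vgf*, a secreted peptide precursor induced by neurotrophins, had 29.3 to 41.6 FPKM (median 34.3) with vehicle and 33.1 to 53.6 FPKM (median 45.1) with PDX, at a log2 fold change of 0.34 (SE 0.11, adjusted p = 0.888, interval 0.08 to 0.59). For *Vgf* 5 PDX mice lay above the vehicle range when compared as CPM, and the sham mice had 22.4 to 31.7 FPKM. *Scg2*, secretogranin II, had 91.1 to 103 FPKM (median 97.1) and 82.6 to 93.2 FPKM (median 90.2), at a log2 fold change of -0.11 (SE 0.036, adjusted p = 0.844, interval -0.19 to -0.04), and the groups overlapped.

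Among inhibitory receptors and their G proteins 11 of 20 genes were well expressed, 4 higher and 7 lower. Without vehicle female 2, 6 were higher and 5 lower. *Gnai2*, an inhibitory Gα subunit, had 78.98 to 84.5 FPKM (median 81.5) and 82.1 to 87.8 FPKM (median 85.5), at a log2 fold change of 0.07 (SE 0.026, adjusted p = 0.888), and its paralog *Gnai1* had a difference of -0.05 (SE 0.027). *Htr1d*, a serotonin receptor coupled to these proteins, had medians of 8.15 and 8.79 FPKM (0.13, SE 0.052). The μ opioid receptor gene *Oprm1* is not a well-expressed gene by the deposited values (medians of 0.225 FPKM with vehicle and 0.220 FPKM with PDX), and its interval, -0.54 to 0.51, left its direction undetermined.

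Of the 24 axon injury genes 16 were well expressed, and all 16 had estimates above 0, where 3698 of all 7471 well-expressed genes did. The members were measured in the same mice and are not replicates of each other. They had a median log2 fold change of 0.20 and a range from 0.02 to 1.16. No member passed the adjusted test, 3 had an unadjusted p-value under 0.05 and 6 had narrow intervals. The transcription factor *Jun* had 31.7 to 35.02 FPKM (median 34.5) with vehicle and 34.5 to 40.96 FPKM (median 37.2) with PDX, at a log2 fold change of 0.14 (SE 0.041, adjusted p = 0.801, interval 0.05 to 0.23), and 5 PDX mice lay above the vehicle range. The growth cone protein *Basp1* (0.12, SE 0.043, adjusted p = 0.888) and the small heat shock protein *Hspb1* (0.19, SE 0.077, adjusted p = 0.915) were the other members with an unadjusted p-value under 0.05. The growth-associated protein *Gap43* was at the low end (0.02, SE 0.085).

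The members with the largest estimates varied most between mice. *Sprr1a*, a small proline-rich protein that promotes axon outgrowth, had 3.51 to 69.5 FPKM (median 7.79) with vehicle and 6.84 to 93.3 FPKM (median 36.1) with PDX, at a log2 fold change of 1.16 (SE 1.1, adjusted p = 0.977, interval -1.32 to 3.64). The vehicle maximum came from 1 male, and the other 5 vehicle mice had 3.51 to 11.9 FPKM. The same male held the vehicle maximum of galanin, neurotensin and *Atf3*. *Gal*, the gene of the neuropeptide galanin, had 13.8 to 124 FPKM (median 22.04) with vehicle and 20.6 to 112 FPKM (median 53.2) with PDX, at a log2 fold change of 0.55 (SE 0.73). *Nts*, the gene of neurotensin, had 5.92 to 19.2 FPKM (median 8.35) and 7.14 to 25.9 FPKM (median 13.3), at 0.64 (SE 0.40). The transcription factor *Atf3* had 8.45 to 30.7 FPKM (median 16.3) and 10.8 to 45.99 FPKM (median 25.1), at 0.57 (SE 0.37). For all 3 genes the groups overlapped. Without vehicle male 2 the log2 fold change was 2.54 for *Sprr1a* and 1.41 for *Gal*, and without vehicle female 2 it was 0.75 and 0.25. For *Nts* and *Atf3* it was 0.96 and 0.87 without vehicle male 2 and 0.42 and 0.39 without PDX female 3. *Stmn4*, a regulator of microtubules, differed by 0.31 (SE 0.15), the integrin subunit *Itga7* by 0.21 (SE 0.098) and the stress response gene *Gadd45a* by 0.25 (SE 0.18). Without that male, vehicle male 2, the median of the list was 0.30, and over the leaving out of each mouse in turn it ranged from 0.15 to 0.30, with 15 or 16 of the 16 genes higher. In each mouse the level of the list was taken as the median over its genes of the deviation from the gene's mean log2 CPM. Apart from the male at 0.29, the vehicle mice lay between -0.26 and -0.13, the PDX mice between -0.19 and 0.28 and the sham mice between -0.29 and -0.18. Macrophage genes moved with the list in part. On the same scale the 4 well-expressed macrophage genes, all 4 higher with PDX, lay between -0.40 and 0.16 with vehicle and between -0.35 and 0.35 with PDX. They were at 0.12 in vehicle male 2, 0.35 in PDX male 2 and 0.29 in PDX female 3, where the axon injury list was highest, and at 0.16 in vehicle female 1, where it was at -0.15. Their part in the axon injury values was not tested.

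Split by sex, all 16 axon injury genes were higher with PDX in females and 8 of 16 in males, with a median log2 fold change of 0.43 in females and 0.01 in males. *Atf3* differed by 1.14 (SE 0.47) in females and -0.01 (SE 0.47) in males, *Sprr1a* by 2.72 (SE 1.3) and -0.38 (SE 1.2), and *Gal* by 1.75 (SE 0.85) and -0.64 (SE 0.83). All 3 PDX females exceeded all 3 vehicle females for these genes. *Sprr1a* and *Gal* were named after their values had been seen, and the share of all genes separated in this way was not taken. The male group held both the vehicle male at 69.5 FPKM of *Sprr1a* and a PDX male at 44.2 FPKM, while the other 4 males had 3.51 to 6.89 FPKM. The sex difference of these genes was not past the threshold, since the lowest adjusted p-value of the sex by PDX interaction in the list was 0.999.

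**Figure D4:**
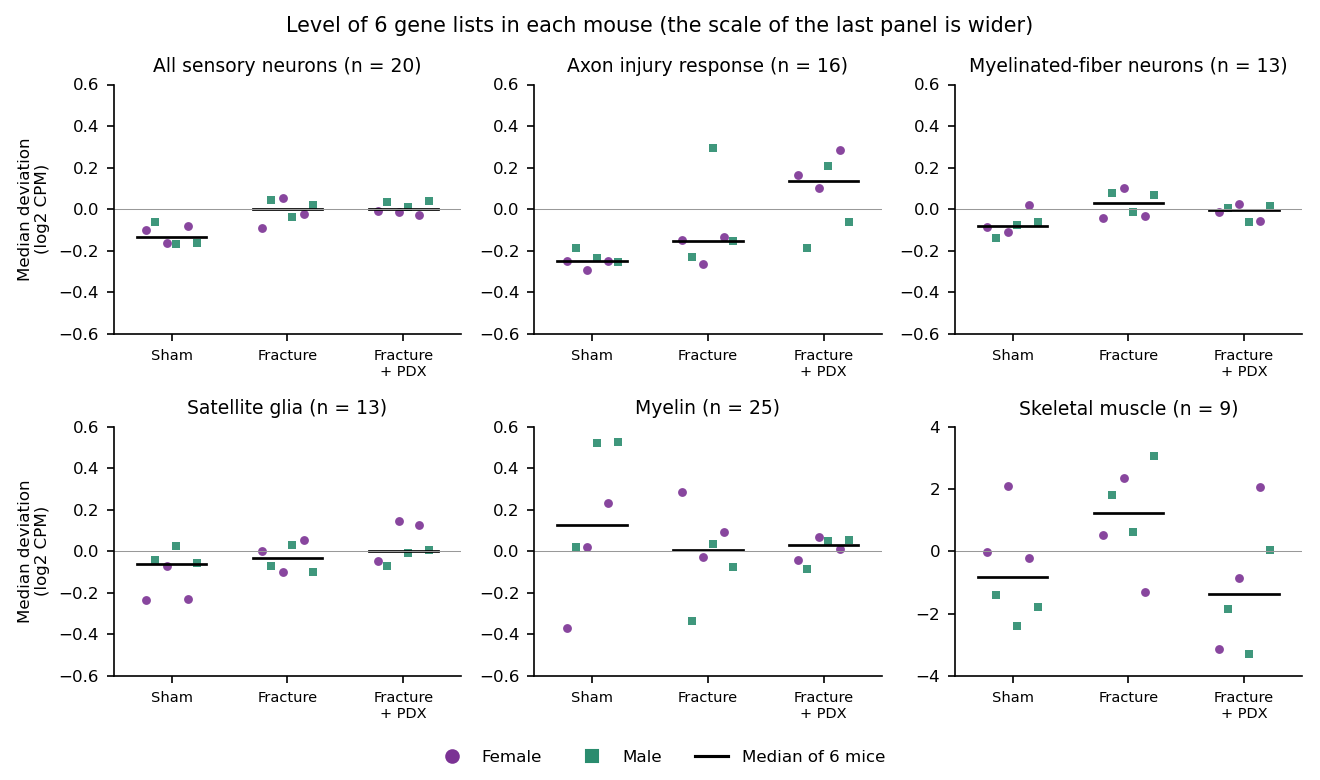
Level of 6 lists in each mouse, as the median over the well-expressed members of log2 CPM minus the gene's mean over the 12 fracture libraries (circles for females, squares for males, bars for group medians). The axon injury list has medians of -0.15 with vehicle and 0.13 with PDX, with 1 fracture male at 0.29, while the pan-neuronal list has 0.00 in both. The muscle panel has a wider scale.

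**Figure D5:**
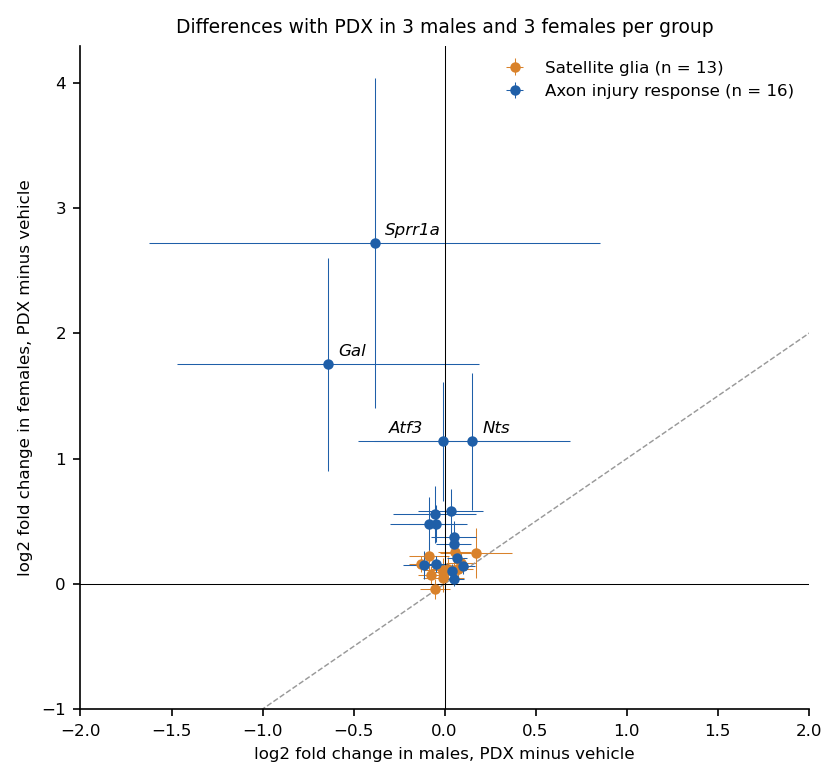
Log2 fold change with PDX in females (vertical) and in males (horizontal) of 16 axon injury (blue) and 13 satellite glial genes (orange), from the edgeR model with a sex by PDX interaction (bars, 1 SE; dashed line, equal values). *Sprr1a* lies at 2.72 in females and -0.38 in males, and *Gal* at 1.75 and -0.64.

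Genes of neurons with myelinated fibers were mostly on the lower side. Of 13 well-expressed members 12 were lower and 1 higher, with a median of -0.04 and none at an unadjusted p-value under 0.05. Leaving out each mouse in turn left 9 to 12 of them lower, with 9 without vehicle female 2, PDX male 2 or PDX female 2. The median then ranged from -0.06 to -0.01, the latter without PDX male 2. The neurofilament genes *Nefh* (-0.04, SE 0.055) and *Nefl* (-0.04, SE 0.031), among the most abundant of all neuronal genes at means of 722 and 1610.2 FPKM, had overlapping groups. *Ntrk2*, the receptor of brain-derived neurotrophic factor, was the member on the higher side (0.05, SE 0.035). The lowest estimates were those of the calcium-binding protein *Pvalb* (-0.29, SE 0.14) and of osteopontin, *Spp1* (-0.19, SE 0.11). *Pvalb* had 65.6 to 110.1 FPKM (median 84.3) with vehicle and 53.8 to 89.1 FPKM (median 69.97) with PDX, and 2 PDX mice lay below the vehicle range. *Pvalb* is also a gene of fast muscle, and 9 of 9 well-expressed muscle genes were lower with PDX (median -1.90). *Pvalb* differed by -0.51 in males and -0.07 in females, and the muscle list by -3.20 and -0.54. The part of muscle RNA in the value of *Pvalb* was not tested.

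Satellite glial genes were mostly on the higher side. Of 15 genes 13 were well expressed, 11 higher and 2 lower, with a median of 0.07 and 12 narrow intervals. *Cst3*, the secreted protease inhibitor cystatin C, had 168 to 207 FPKM (median 185) with vehicle and 185 to 216 FPKM (median 209) with PDX, at a log2 fold change of 0.13 (SE 0.057, adjusted p = 0.924, interval 0.01 to 0.25). *Atp1b2*, a subunit of the sodium pump, had 22.2 to 26.4 FPKM (median 25.2) and 24.8 to 32.5 FPKM (median 26.2), at a log2 fold change of 0.16 (SE 0.07, adjusted p = 0.924). These 2 genes had unadjusted p-values under 0.05, and for each of them 3 PDX mice lay above the vehicle range. *Apoe*, a lipid carrier and the most abundant satellite glial gene listed, had 1114 to 1299.9 FPKM (median 1206) and 1195 to 1443 FPKM (median 1217), at a log2 fold change of 0.08 (SE 0.048). *Fabp7*, a fatty acid binding protein that marks these cells, differed by 0.07 (SE 0.09), the ATP-degrading enzyme *Entpd2* by 0.21 (SE 0.13) and the serine synthesis enzyme *Phgdh* by -0.05 (SE 0.057). Without single mice these estimates ranged from 0.01 to 0.12, from 0.11 to 0.31 and from -0.08 to -0.01.

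Counts of satellite glial genes are also given by sex and without single mice. In females 12 of 13 were higher and in males 6 of 13, with medians of 0.12 and -0.01, and the lowest adjusted p-value of the sex by PDX interaction in the list was 0.999. Without PDX female 3, 8 of 13 were higher and the median was 0.03. *Cst3* and *Apoe* are also made by macrophages, and 4 of 4 well-expressed macrophage genes were higher with PDX, with a median of 0.27. Their summed level was 68.1 to 91.1 FPKM with vehicle and 87.9 to 124 FPKM with PDX. The highest of the 4 genes had a mean of 66.7 FPKM, where the median of the 4 means was 10.98 FPKM. As median deviations per mouse in log2 CPM the groups overlapped, at -0.40 to 0.16 and -0.35 to 0.35. PDX male 1, with a sum of 114 FPKM, lay at -0.35 and had the highest neutrophil sum of the PDX mice, 443 FPKM. *Tyrobp*, a signaling adaptor of myeloid cells that was looked at after its value had been seen, had 4.08 to 5.45 FPKM (median 4.82) and 5.28 to 8.54 FPKM (median 6.75), at a log2 fold change of 0.54 (SE 0.13, adjusted p = 0.801). The part of myeloid cells in the values of *Cst3* and *Apoe* was not tested.

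Of a pair of related receptor genes, *Gpr37l1* was well expressed and *Gpr37* was not. *Gpr37l1*, found in satellite glial cells, had 39.98 to 47.5 FPKM (median 44.7) with vehicle and 40.4 to 50.1 FPKM (median 44.2) with PDX, at a log2 fold change of 0.04 (SE 0.052, adjusted p = 0.985, interval -0.07 to 0.15). *Gpr37* had a mean of 2.56 FPKM and an interval of -0.08 to 0.19.

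Of 14 well-expressed genes shared by all glia 7 were higher and 7 lower, with a median of -0.01. *Sox10*, the transcription factor of peripheral glia, had 31.5 to 38.5 FPKM (median 34.7) and 33.03 to 36.6 FPKM (median 33.6), at a log2 fold change of -0.02 (SE 0.047, adjusted p = 0.992). The cadherin *Cdh19* (-0.17, SE 0.13) and the adhesion molecule *Ncam1* (0.07, SE 0.035) had the smallest p-values in either direction. Without single mice *Cdh19* ranged from -0.23 to -0.09 and *Ncam1* from 0.05 to 0.09. Of 25 well-expressed myelin genes 15 were higher and 10 lower, with a median of 0.02, and none had an unadjusted p-value under 0.05. In females 5 of 25 were higher and in males 20 of 25, with medians of -0.09 and 0.07, and the lowest adjusted p-value of the interaction in the list was 0.999. Leaving out single mice turned the direction of the list. Without vehicle male 1, 7 of 25 were higher with a median of -0.04, without PDX male 2 or male 3, 10 or 11 of 25 were higher with medians of -0.01, and without vehicle female 1, 19 of 25 were higher with a median of 0.06. The myelin list ranged more widely in vehicle mice than in PDX mice, with median deviations per mouse from -0.33 to 0.28 and from -0.09 to 0.07 on the log2 scale. *Nfasc*, which encodes a cell adhesion protein at nodes of Ranvier, differed by -0.05 (SE 0.025) and the myelin protein *Cmtm5* by 0.10 (SE 0.058).

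All 19 genes of cholesterol synthesis, a pathway that supplies myelin, were well expressed, 10 higher and 9 lower, with a median of 0.00. *Hmgcs1*, an early enzyme of the pathway, had 135 to 147 FPKM (median 137) and 129 to 143 FPKM (median 141), at a log2 fold change of -0.01 (SE 0.037, adjusted p = 0.998). The later enzymes *Hsd17b7* (0.16, SE 0.088) and *Nsdhl* (-0.09, SE 0.044) had the smallest p-values in either direction. For *Hsd17b7* the estimate was 0.41 (SE 0.074) in females and -0.09 (SE 0.074) in males, and the adjusted p-value of that sex difference was 0.999.

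Across all genes the interaction of sex with PDX was called for 1 of 21878 genes (0.00457%), which is not well expressed, and 906 genes had an unadjusted p-value under 0.05. None of the 7471 well-expressed genes was called, and their lowest adjusted p-value was 0.999. *Trpa1* differed by -0.18 (SE 0.093) in females and -0.34 (SE 0.093) in males, *Htr3a* by -0.41 (SE 0.082) and -0.18 (SE 0.082), and *Vgf* by 0.45 (SE 0.16) and 0.23 (SE 0.16).

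The same genes are given beside the comparison of fracture with sham, which shares the 6 vehicle libraries, so the values of the comparisons are not independent. Between fracture and sham, 222 of 21500 genes (1.03%) were called higher and 382 (1.78%) lower. Leaving out each mouse in turn gave between 201 calls, without vehicle female 2, and 699 calls, without sham male 1. Among well-expressed genes 183 were called higher and 91 lower, and among neuronal genes 22 of 184 higher and 0 lower, with a median log2 fold change of 0.10 where that of all well-expressed genes was 0.02. Of the 71 glial genes 5 were called higher and 0 lower, with a median of -0.02, and of 0.09 for the list of all glia. In the same comparison the medians of other lists were -0.18 for myelin, -0.23 for fibroblast, -0.21 for macrophage, -0.53 for erythroid, -0.81 for neutrophil, -1.76 for placental and 2.09 for muscle genes, and their part in the neuronal values was not tested. *Sprr1a* rose with fracture by a log2 fold change of 3.83 (SE 0.81, adjusted p = 0.0416) and differed by 1.16 (SE 1.1) with PDX. The rise includes vehicle male 2, at 69.5 FPKM, where the other vehicle mice had 3.51 to 11.9 FPKM. *Atf3* rose with fracture by 1.65 (adjusted p = 0.0143), *Adcyap1* by 0.78 (adjusted p = 0.0295), *Gadd45a* by 0.76 (adjusted p = 0.0286) and *Itga7* by 0.29 (adjusted p = 0.0431). The neuronal genes *Tubb3* (0.17, adjusted p = 0.0128) and *Nefh* (0.22, adjusted p = 0.0128) also rose with fracture. For *Trpa1* the values were 0.07 with fracture (adjusted p = 0.630) and -0.26 with PDX, and for *Htr3a* 0.07 (adjusted p = 0.828) and -0.29.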

How the data were processed

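The L3–L5 DRG of 18 CD1 mice, 6 per group, were sequenced as 1 RNA library per mouse. Per the labels, poly(A) RNA was made into strand-specific TruSeq libraries. The submitters' processing notes name cutadapt 1.10, FastQC, HISAT2, StringTie and the mm10 genome, without their roles or the counting settings. The authors deposited raw read counts for 36737 genes, and the deposited FPKM values of the same genes and libraries are scaled for transcript length and mapped fragments. Column names that begin with Con were read as the sham libraries. Columns of values that were not used numbered 0, and RNA of genes with near-identical copies can be split between them.

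The tools were DESeq2 1.42.0, limma 3.58.1 and edgeR 4.0.16, in R 4.3.3. The count table was filtered with filterByExpr (minimum count 10, minimum total count 15), scaled by TMM and tested with the robust quasi-likelihood F test with sex and group as terms, and genes were called at 0.05 after Benjamini-Hochberg adjustment across every gene tested. The test ran on the whole count table, and the well-expressed genes were read from it. Levels are deposited FPKM, given as the lowest, highest and median of 6 mice, and differences are edgeR log2 fold changes. SE values were derived from the F statistic. Counts of mice above or below the other group used CPM scaled by TMM, without a log or a prior count. The level of a list in each mouse used log2 CPM with a prior count of 2. The fits were checked on simulated counts with 200 genes changed by 1.5-fold or more. Most differences given here are smaller, and the check does not cover them.

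The members and gene lists were chosen with earlier results of these data known. Named genes were *Trpa1*, *Gpr37* and *Gpr37l1*, the first gene of each neuronal and glial list, in each list the well-expressed gene with the smallest p-value in each direction, and the 4 such genes in each direction over all well-expressed genes, without predicted genes, pseudogenes, ribosomal protein genes and the lists of other cell types (53 genes). A further 42 genes, among them those whose groups did not overlap, were added after their values had been seen. Values of some single genes are not reported here.

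The fracture libraries held 63235040 to 82824942 counts each and the sham libraries 69515456 to 80335243. Each mouse counts as 1 replicate, and p-values measure the spread between mice. The alternatives were DESeq2, no low-count filter, upper-quartile scaling, a fit on genes of 5 FPKM or more, a block for same-numbered mice of a sex, no sex term, limma on deposited FPKM with pseudocounts of 1 or 0.1 before log2, 1 fit of all 18 libraries, limits of 1 and 10 FPKM, and leaving out each mouse in turn. Promoter and protein sequences were not used.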

Additional observations from a re-analysis of the deposited data

Results flagged for a closer look

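Among 222 groups of 6 mice looked at, 22 held a mouse whose gap to the others exceeded the critical value of Dixon's test, and chance flags about 1 in 20 groups. Vehicle male 2 stood above the other vehicle mice for *Sprr1a* (69.5 FPKM, others 3.51 to 11.9), *Gal* (124 FPKM, others 13.8 to 32.1), *Gap43* (115 FPKM, others 82.3 to 90.4), *Nts* (19.2 FPKM, others 5.92 to 10.1) and *Stmn4* (14.4 FPKM, others 8.65 to 10.1), and for the axon injury list as a whole (0.29 on the log2 scale, others -0.26 to -0.13). It also stood above them for *Trpv1* (33.4 FPKM, others 28.1 to 29.7), *Hsd17b7* (11.8 FPKM, others 9.18 to 9.56) and *Slc35b1* (16.8 FPKM, others 14.4 to 15.2). Vehicle female 1 was lowest for the peptidergic (-0.12) and calcium channel lists (-0.11), and vehicle male 3 was highest for the list of all glia (0.0805).

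Among PDX mice, male 2 was highest for *Basp1* (112 FPKM, others 93.2 to 99.2) and lowest for *Kcnk1* (20.97 FPKM, others 31.3 to 35.7). Male 1 was lowest for *Entpd2* (12.5 FPKM, others 15.6 to 17.2) and male 3 for *Trpv1* (23.5 FPKM, others 28.3 to 30.2). Female 1 was lowest for *Acaa2* (36.4 FPKM, others 37.4 to 37.6) and *Pam16* (4.33 FPKM, others 4.84 to 4.97). Female 2 was highest for *Cox8a* (247 FPKM, others 213 to 223) and lowest for *Oprm1* (0.15 FPKM, others 0.21 to 0.24), and female 3 was highest for *Il10rb* (19.7 FPKM, others 13.8 to 14.4) and lowest for *Vdac3* (21.3 FPKM, others 22.3 to 22.9).

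The sex by PDX interaction was called for *Xntrpc*, which is not well expressed (adjusted p = 0.000538, edgeR interaction test), while limma on FPKM called 0 genes. It had 0 counts in all 3 male PDX libraries, 255 to 518 counts in the female PDX libraries and 179 to 385 counts in the vehicle libraries, and genotype differences between these outbred mice were not tested.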

How the results depend on the processing

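No gene was called between PDX and vehicle with upper-quartile normalization, without a filter on low counts, with a fit on genes of 5 FPKM or more, without the sex covariate, with all 18 libraries in 1 fit or with limma on log2(FPKM + 1) or log2(FPKM + 0.1). DESeq2 called 13 genes, and leaving out each mouse in turn gave 0 to 2, with 2 without PDX female 3. Before adjustment, a limit of 1 FPKM gave 370 genes higher and 397 lower, and a limit of 10 FPKM gave 156 higher and 137 lower. Leaving out mice gave 168 to 322 higher and 186 to 237 lower. The interaction of sex with PDX was called for 9 genes by DESeq2, for 0 in a fit on genes of 5 FPKM or more, for 0 by limma on log2(FPKM + 1), for 0 by limma on log2(FPKM + 0.1) and for 1 to 2 without single mice (2 without vehicle male 1 or 3, PDX male 2 or PDX female 3). Between fracture and sham, 604 genes were called, against 1517 by DESeq2, 190 in a fit on genes of 5 FPKM or more, 385 by limma on log2(FPKM + 0.1) and 201 to 699 without single mice. The cause of these differences was not tested. Between fracture and sham, the main fit called 183 well-expressed genes higher and 91 lower, where the fit on genes of 5 FPKM or more called 190.

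With same-numbered mice of a sex as a replicate block, 3 genes were called between PDX and vehicle, *Fkbp5* (adjusted p = 0.0385) and 2 that are not well expressed, and 119 between fracture and sham. The numbers do not pair the mice in the labels, the deviations of same-numbered mice correlated at 0.18 to 0.33 in males and -0.24 to -0.08 in females, and 3 of 6 mice correlated best with their own number.

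Of 95 named genes 87 kept their direction under every setting run. The others lay near 0 and turned when single mice were left out, with ranges of -0.0242 to 0.10 for *Gap43*, -0.0239 to 0.0188 for *Hmgcs1*, -0.11 to 0.00657 for *Mrgprd*, -0.0733 to 0.00112 for *Nefh*, -0.15 to 0.23 for *Oprm1*, -0.0394 to 0.0171 for *Scn10a*, -0.0571 to 0.00396 for *Sox10* and -0.0651 to 0.0103 for *Trpv1*. *Oprm1* was also at 0.0772 under the replicate block and at 0.0309 with limma on log2(FPKM + 0.1). Over all genes tested, 51.4% had 95% intervals within 0.32 of 0 on the log2 scale, against 91.6% of well-expressed genes.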
